A study of Bos taurus with 18 samples.

Results

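The aminoacyl-tRNA synthetases are the enzymes that attach each amino acid to its transfer RNA (tRNA). Their genes were followed through 6 stages of bovine oocytes and preimplantation embryos. Members were chosen by name, as the gene rows of the deposited table named after a synthetase or after the scaffold proteins AIMP1 and AIMP2. This gave 34 of 21668 genes, of which 19 encode cytosolic enzymes, 13 encode mitochondrial enzymes and 2 are scaffolds. All 34 had reads in at least 3 libraries and were tested, and 32 had reads in all 18 libraries. The cytosolic genes were AARS, CARS, DARS, EPRS, FARSA, FARSB, GARS, HARS, IARS, KARS, LARS, MARS, NARS, RARS, SARS, TARS, VARS, WARS and YARS. The mitochondrial genes, which carry the suffix 2 in their names, included CARS2, FARS2, IARS2, LARS2, MARS2, NARS2, PARS2, RARS2, SARS2, TARS2, WARS2 and YARS2. Synthetase genes under other row names are not members, and QARS, AARS2, HARS2 and VARS2 were not analysed here.

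A cell translates in the cytosol and, with a separate set of tRNAs, in its mitochondria, and both sets of enzymes are encoded in the nucleus. The letter that opens each gene name is the code of the amino acid, so that LARS charges tRNA with leucine in the cytosol and LARS2 does so in mitochondria. EPRS is a fused enzyme for glutamate and proline, FARSA and FARSB are subunits of the same phenylalanine enzyme, and GARS and KARS each give rise to a cytosolic and a mitochondrial form. DARS, EPRS, IARS, KARS, LARS, MARS and RARS belong to the multisynthetase complex, which is held together by scaffold proteins that include AIMP1 and AIMP2. Many cytosolic synthetase genes are known targets of ATF4, the transcription factor of the amino acid stress response. The oocyte stores mRNA for the first cleavages, and the embryo's own genome takes over in cattle mainly around the 8-cell and 16-cell stages.

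The 18 libraries were 3 pools of each of 6 stages, and each pool held 10 oocytes or embryos. The stages were German Simmental oocytes at the germinal vesicle (GV) stage, freed of cumulus cells, and, after maturation in vitro, at metaphase II (MII), and embryos of a German Simmental x Brahman cross at 4, 8 and 16 cells and at the blastocyst stage, all produced in vitro. Ovaries came from an abattoir, the sperm was that of a Zebu bull, and fertilisation was done in vitro. Breed and stage change together between MII oocytes and 4-cell embryos and cannot be told apart there. The same holds wherever embryos of any stage are set against oocytes, as in values relative to GV oocytes. The labels do not say whether the pools of a stage came from separate cultures, so that the p-values measure the spread between pools, which may be partly technical. The reads assigned to genes numbered 2438473 to 11971840 per library, and 11970 to 15399 genes had reads. The fewest genes with reads at these stages were found in 8-cell replicate 2 (12393) and 16-cell replicate 1 (11970), and results that rest on them are given without them as well. Of 10 oocyte markers all had reads at every stage, and their summed level was 72069 to 100822 in GV oocytes and 92.9 to 179.7 in blastocysts. Markers of blastocyst epithelium, 10 in all with 3 at 0 reads in GV oocytes, summed to 371 to 388 in GV oocytes and 23209.6 to 55158 in blastocysts. Most of the blastocyst sum was KRT8 (18575, 28062.5 and 12122) and KRT18 (14435, 19852 and 7166). ATP1B1 went the other way, from 92.0, 97.5 and 105.6 in GV oocytes to 3.33, 5.48 and 6.78 in blastocysts. CDX2 overlapped, with 79.6, 120 and 23.5 in GV oocytes and 213, 130 and 88.1 in blastocysts. Markers of cumulus and granulosa cells numbered 18. In GV oocytes 3 had 0 reads (FOXL2, LHCGR and TNFAIP6), and in blastocysts 4 (CD44, GREM1, INHA and NR5A1). Their sum was 2951 to 3954 in GV oocytes and 689 to 1449 in blastocysts. It was not confined to oocytes. The lowest library held 2823 at the 4-cell stage and 2437 at the 8-cell stage (highest 3821 and 3974). By the 16-cell stage the range was 761 to 1726. Among GV oocytes STAR had 1761, 1583 and 1650, VCAN 557, 874 and 1113 and HAS2 540, 996 and 649. FSHR had 0.948, 2.12 and 94.6 there, and INHA 0, 5.65 and 90.9. The part of these markers in the results below was not tested. Of 5 sperm markers 4 had 0 reads in GV oocytes and 2 in blastocysts, where their summed level was 77.4 to 1028 and TNP1 had 170.0, 962 and 69.7, and the part of this in the blastocyst results was not tested either.

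Levels are given as scaled counts, which are the reads of a gene divided by the authors' size factor of the library, in the order of replicates 1, 2 and 3. A read counted for 0.563 to 2.82 scaled counts, depending on the library. They are not divided by transcript length, so levels are compared between stages of a gene and not between genes, and they are relative to the other RNA of a library, so that fewer cells of a type and less RNA per cell cannot be told apart. Differences are those of the deposited variance-stabilised values, a log2-like scale, given ± standard error from limma with an adjusted p (Benjamini-Hochberg over 17138 genes). A gene is said to have risen or fallen where that p was under 0.05. Stages were compared in sequence, each with its predecessor, so neighbouring comparisons share the 3 libraries of a stage.

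Over the whole course 28 of the 34 members differed between stages (limma F test, adjusted p under 0.05), beside 67% of all genes tested. These were 17 of 19 cytosolic genes, 9 of 13 mitochondrial genes and both scaffolds. Those that did not pass included FARSA, NARS, FARS2, MARS2 and PARS2. The stage with the highest mean was the blastocyst for 17 of 19 cytosolic and 7 of 13 mitochondrial genes, beside 32.3% of all genes tested. RARS and FARSB were the cytosolic exceptions and were highest in GV oocytes. The lowest mean lay at the 4-cell stage for 7 of 13 mitochondrial genes, beside 13.3% of all genes, and at no stage for more than 6 of 19 cytosolic genes. The blastocyst was the lowest stage for 0 of 34 members, beside 19.9% of all genes.

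The medians of both classes were set side by side over the stages. Set against each gene's mean in GV oocytes, the median over the cytosolic genes was -0.30 ± 0.07 in MII oocytes, 0.07 ± 0.09 at 4 cells, -0.24 ± 0.24 at 8 cells, 0.45 ± 0.40 at 16 cells and 2.15 ± 0.08 among blastocysts (SD, n = 3). The median over the mitochondrial genes was -0.14 ± 0.18, -0.35 ± 0.14, -0.88 ± 0.72, 0.68 ± 0.76 and 1.29 ± 0.58 at the same stages. Its low mean at 8 cells rests on replicate 2, with -1.71, beside -0.40 and -0.53 in replicates 1 and 3. The median over all genes tested stayed between -0.11 and 0.15. Genes without reads in a library and in GV oocytes show no change, which keeps this median from moving. The median value of a library was 5.717 to 5.955 in GV oocytes, 5.39 to 5.603 in MII oocytes and 5.951 to 6.358 in blastocysts. In blastocysts every library had a higher cytosolic than mitochondrial median, by 0.50 to 1.55. In 16-cell embryos the order of the class medians differed between libraries, from -1.07 in replicate 2 to 0.48 in replicate 1 (cytosolic minus mitochondrial). As a share of all reads in genes, the cytosolic genes held 1929 ± 86.3 RPM (their reads scaled to the library total) in GV oocytes, 1384 ± 37.6 at 8 cells, 1905 ± 228 at 16 cells and 4839 ± 453 among blastocysts. The mitochondrial genes held 331 ± 14.9, 156 ± 53, 333 ± 107 and 579 ± 16.3 at these stages. At 8 cells their libraries held 157, 103 and 209 RPM, with replicate 2 the lowest. Single genes weigh heavily in these shares. In blastocysts IARS2 had 3293, 965 and 1646 of the 6477, 3475 and 4084 mitochondrial reads. In GV oocytes RARS2 had 723, 1537 and 1286 of 2037, 3018 and 3014. These class values are descriptions and carry no test.

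**Figure D1:**
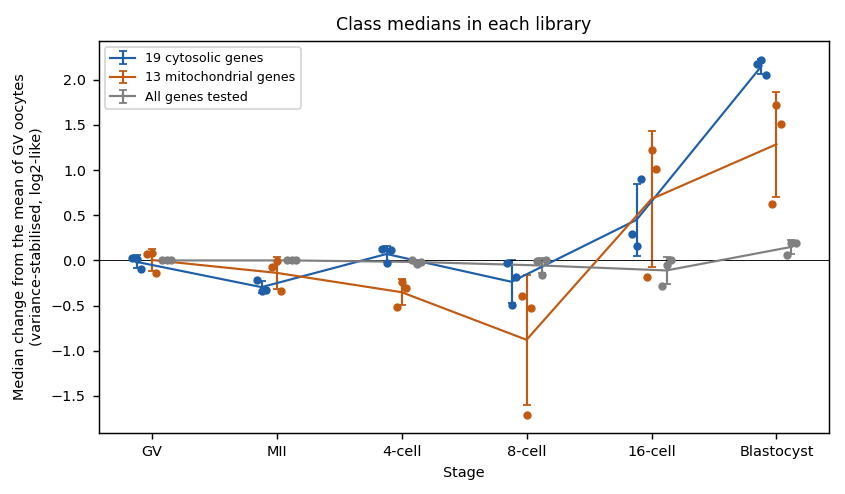
Median change of 19 cytosolic and 13 mitochondrial synthetase genes and of all genes tested, relative to each gene's mean in GV oocytes, on the y axis (variance-stabilised, log2-like), by stage on the x axis; points are libraries, lines join stage means and bars are SD of 3 libraries. The cytosolic median reached 2.15 in blastocysts and the mitochondrial median 1.29, after a lowest mitochondrial mean of -0.88 in 8-cell embryos. That mean rests on 8-cell replicate 2, with -1.71, beside -0.40 and -0.53 in replicates 1 and 3.

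Most of the calls fell into the last 2 steps, as did those of all genes tested. Of the members, 11 rose between the 8-cell and the 16-cell stage and 11 rose and 1 fell between the 16-cell stage and the blastocyst, while 0, 1 and 5 changed at the 3 earlier steps. Of all genes tested, 31.1% and 31.3% changed at the last 2 steps, and 0.712%, 0.794% and 12.8% at the earlier ones. The largest single change was that of the scaffold gene AIMP1 at the 16-cell stage.

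**Figure D2:**
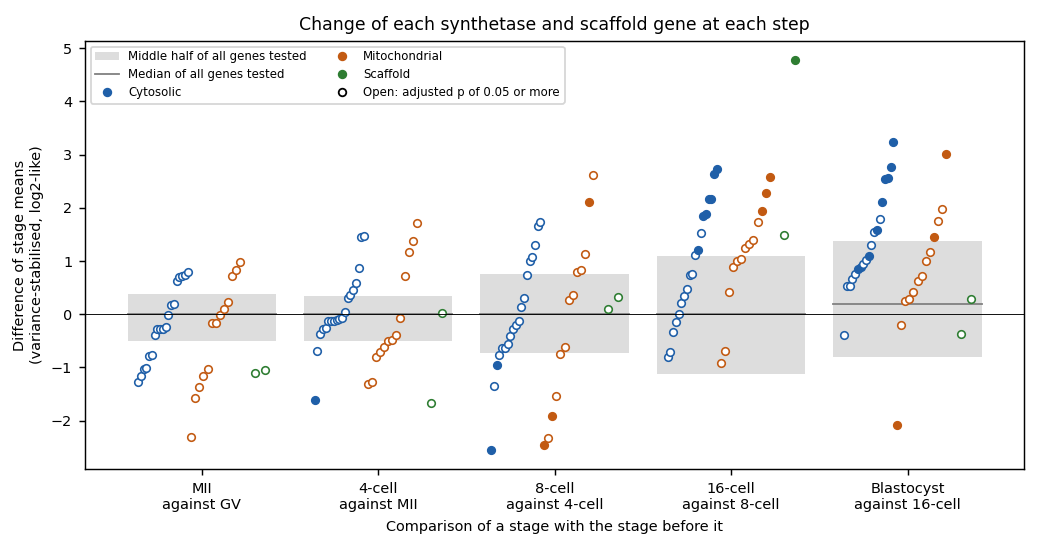
Difference of each of the 34 genes between a stage and the stage before it on the y axis (variance-stabilised, log2-like), by comparison on the x axis; filled points passed an adjusted p under 0.05, grey boxes hold the middle 50% of all genes tested and grey lines their median. Filled points were absent at the step to MII oocytes and numbered 11 and 12 at the last 2 steps, with AIMP1 at 4.78.

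During maturation in vitro, from GV to MII oocytes, limma called 0 of 19 cytosolic and 0 of 13 mitochondrial genes, while 0.0992% of all genes tested rose and 0.613% fell. An unadjusted p was under 0.05 for 3 cytosolic (MARS, RARS and VARS) and 2 mitochondrial genes (CARS2 and WARS2), all of them lower in MII oocytes, and voom gave 0 calls. With array weights, which give less weight to the more variable libraries, these same 5 genes passed as lower. The share of all genes tested that passed in that fit was not counted, so no result is drawn from this number. WARS2, the mitochondrial tryptophan enzyme, had 278, 344 and 187 among GV oocytes and 108, 67.2 and 131 among MII oocytes, without overlap (difference -1.37 ± 0.49, adjusted p = 0.31). MARS, the methionine enzyme of the complex, had 369, 266 and 242 among GV oocytes and 191, 85 and 124 among MII oocytes, also without overlap (difference -1.16 ± 0.43, adjusted p = 0.36). CARS2 had 102, 97.5 and 77.7 among GV oocytes and 12, 14.5 and 20.6 among MII oocytes (difference -2.31 ± 1.01, adjusted p = 0.52). The median difference was -0.27 for cytosolic and -0.16 for mitochondrial genes, and 0.00 for all genes. Library medians lay 0.315 lower in MII than in GV oocytes, and setting them equal turned the number of higher genes from 7 to 12 of 19 cytosolic and from 5 to 8 of 13 mitochondrial members, so no direction is given for either class.

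Between MII oocytes and 4-cell embryos a single member, 1 of 34, changed, beside 0.794% of all genes tested. FARSB, the beta subunit of the phenylalanine enzyme, fell from 1549, 1324 and 1505 to 333, 693 and 464 (difference -1.61 ± 0.29, adjusted p = 0.0049), and the libraries of both stages did not overlap. It was 1 of 19 cytosolic genes, and 0.729% of all genes tested fell at this step and 0.0642% rose. The call was lost without 4-cell replicate 1 (adjusted p = 0.052), in a fit restricted to the 2 stages compared (0.11) and with library medians set equal (0.085). FARSA, the alpha subunit of the same enzyme, had 22.2, 109 and 22.3 among MII oocytes and 55.7, 14.7 and 52.2 among 4-cell embryos, with overlap (difference -0.11 ± 0.87, adjusted p = 1). No mitochondrial gene passed (the unadjusted p was under 0.05 for NARS2 and TARS2, and voom gave 0 calls), and RARS2 and NARS2 were lower in all 3 libraries of 4-cell embryos than in MII oocytes without passing (-0.49 and -1.27). CARS2, IARS2, PARS2 and TARS2 were higher in all 3 libraries of 4-cell embryos, also without passing (1.17, 0.72, 1.71 and 1.39). How many of all genes tested separate in this way was not counted, at this or any other step, so no result is drawn from it. AIMP1 had 143, 191 and 255 among MII oocytes and 54, 33.9 and 101 among 4-cell embryos, without overlap, and did not pass (difference -1.67 ± 0.57, adjusted p = 0.29); with array weights it did (adjusted p = 0.005). Array weights also called VARS, the valine enzyme, as higher (0.0083 against 0.37).

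At the 8-cell stage members moved in both directions. Of 19 cytosolic genes 2 fell (LARS and GARS) and 0 rose, and of 13 mitochondrial genes 2 fell (IARS2 and RARS2) and 1 rose (NARS2). Of all genes tested 4.13% fell and 8.64% rose. The median difference was -0.20 for cytosolic and 0.27 for mitochondrial genes, but the mean over the mitochondrial genes was -0.11, so no direction is given for that class.

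The falls of both mitochondrial enzymes did not overlap between stages. IARS2, for isoleucine, went from 537, 460.5 and 569 in 4-cell to 126, 49.6 and 121 in 8-cell embryos (difference -2.45 ± 0.43, adjusted p = 0.00039). RARS2, for arginine, went from 1156, 916 and 1051 to 305, 203 and 323 (difference -1.92 ± 0.39, adjusted p = 0.0017). In both genes each 8-cell library lay below each 4-cell library, and both calls held in every alternative fit. NARS2, for asparagine, rose from 20.8, 27.1 and 24.8 to 83.4, 208 and 93.2 (difference 2.11 ± 0.55, adjusted p = 0.012), again without overlap, and missed the threshold in a fit restricted to the 2 stages (adjusted p = 0.073).

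Among the cytosolic genes LARS fell from 464, 398 and 722 to 79.1, 20.6 and 325 (difference -2.55 ± 0.58, adjusted p = 0.0046). Its lowest value was that of replicate 2, and without this library LARS still fell (adjusted p = 0.02), but not in a fit restricted to the 2 stages (0.23). GARS, for glycine, fell from 793, 598 and 666 to 413, 292 and 359.6 (difference -0.95 ± 0.29, adjusted p = 0.035), but lost its call in 5 of 6 fits that left out a library of either stage (adjusted p up to 0.14) and with voom (0.053). YARS2, the mitochondrial tyrosine enzyme, was split between libraries, with 7.31, 10.2 and 5.22 in 4-cell and 148, 3.82 and 282 in 8-cell embryos (difference 2.61 ± 0.94, adjusted p = 0.074). Without 8-cell replicate 2 its difference was 4.21 (adjusted p = 0.00013). EPRS did not pass (difference 1.74 ± 0.62, adjusted p = 0.072), and did so in fits that left out 8-cell replicate 1 (0.028), 8-cell replicate 2 (0.02) or both 8-cell replicate 2 and 16-cell replicate 1 (0.018) and with array weights (0.037), and KARS passed as higher with no filter on low counts (0.04 against 0.098). The values of EPRS were 16.3, 30.5 and 28.7 among 4-cell embryos and 42.1, 43.5 and 388 among 8-cell embryos. YARS, the cytosolic tyrosine enzyme, had 41.6, 77.9 and 49.6 among 4-cell embryos and 89.1, 171 and 388 among 8-cell embryos without overlap (difference 1.66 ± 0.61, adjusted p = 0.081), and passed without 8-cell replicate 1 (0.035).

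The step from 8 to 16 cells brought rises. Of 19 cytosolic genes 7 rose (EPRS, FARSB, HARS, LARS, MARS, SARS and YARS) and of 13 mitochondrial genes 3 rose (LARS2, TARS2 and WARS2), and 0 fell in either class; 3 of the 7 are enzymes of the multisynthetase complex, to which 7 of the 19 belong. Of all genes tested 14.8% rose and 16.3% fell. The median difference was 0.75 for cytosolic and 1.24 for mitochondrial genes, beside 0.00 for all genes, and library medians set equal lower each by 0.121. Without GARS and KARS, whose products also serve mitochondria, the cytosolic median was 1.11.

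FARSB rose from 285, 428 and 367 to 1811, 1431 and 1639 (difference 2.17 ± 0.29, adjusted p = 1.8e-05), beside 1549, 1324 and 1505 in MII oocytes, and this call held in every alternative. LARS went from 79.1, 20.6 and 325 to 443, 491 and 737 (difference 2.64 ± 0.58, adjusted p = 0.0018). MARS went from 197, 83.2 and 147 to 759.5, 311 and 557 (difference 1.89 ± 0.43, adjusted p = 0.0024). EPRS went from 42.1, 43.5 and 388 to 579, 635 and 681 (difference 2.73 ± 0.62, adjusted p = 0.0022). In these 4 genes every 16-cell library lay above every 8-cell library. The remaining rises, of SARS for serine (2.16), YARS (1.85) and HARS for histidine (1.21), were lost when 8-cell replicate 2 and 16-cell replicate 1 were both left out (adjusted p = 0.22, 0.11 and 0.16). SARS had 107, 64.9 and 466 among 8-cell embryos and 1353, 579 and 403 among 16-cell embryos, with overlap.

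Among the mitochondrial genes TARS2, for threonine, rose from 101, 34.4 and 129 to 254, 712 and 616 (difference 2.58 ± 0.58, adjusted p = 0.002). WARS2 rose from 76.3, 140.5 and 179.8 to 483, 616 and 401 (difference 1.95 ± 0.49, adjusted p = 0.0048). LARS2 rose from 12.8, 64.9 and 15.7 to 67.4, 237 and 147 (difference 2.27 ± 0.69, adjusted p = 0.016). The libraries of both stages did not overlap in these 3 genes. LARS2 lost its call without 8-cell replicate 1 (0.066) or 16-cell replicate 2 (0.069). RARS2 was not among them, with 78.7, 192 and 299 in 16-cell embryos (difference -0.70 ± 0.39, adjusted p = 0.19), and passed as lower without 16-cell replicate 3 (0.035). A fit restricted to the 2 stages called 1 cytosolic gene (FARSB), 0 mitochondrial genes and AIMP1. Without 8-cell replicate 2, without 16-cell replicate 1 or without both, 4 cytosolic genes rose.

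From the 16-cell stage to the blastocyst the calls were mostly of cytosolic genes. Fewer reads fell on the mitochondrial genes (333 RPM in all at 16 cells, beside 1905 for the cytosolic genes). The part of read depth in this contrast was not tested. Of 19, 9 rose (AARS, DARS, GARS, HARS, IARS, KARS, LARS, TARS and WARS) and 0 fell, and 18 had a higher mean, with FARSB the exception. Of 13 mitochondrial genes 2 rose (IARS2 and NARS2) and 1 fell (WARS2). Of all genes tested 18.2% rose, 13.1% fell and 54.5% had a higher mean. The median difference was 1.09 for cytosolic, 0.71 for mitochondrial and 0.185 for all genes. Library medians lay 0.359 higher in blastocysts than in 16-cell embryos, and setting them equal left 5 cytosolic rises (AARS, GARS, IARS, LARS and TARS) and 1 mitochondrial rise (IARS2), with 18 of 19 cytosolic and 9 of 13 mitochondrial genes higher. How many of all genes were higher with equal medians was not counted.

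GARS went from 415, 288 and 371 in 16-cell embryos to 2607, 2309 and 2413 in blastocysts (difference 2.77 ± 0.29, adjusted p = 3.9e-07), a ratio of means of 6.83. IARS went from 724, 892 and 922 to 5511, 3741 and 5817 (difference 2.54 ± 0.34, adjusted p = 7.4e-06), a ratio of 5.94. TARS, for threonine, went from 389, 107 and 551 to 4252, 1591 and 3028 (difference 3.24 ± 0.49, adjusted p = 3.6e-05), a ratio of 8.47. The blastocyst libraries of these 3 genes lay above all libraries of all other stages, and the calls held in every alternative. AARS, for alanine, rose from 100, 285 and 505 to 1019, 1752 and 1728 (difference 2.55 ± 0.61, adjusted p = 0.0026), and just missed the threshold in a fit restricted to the 2 stages (adjusted p = 0.051). LARS rose again, to 2463, 1760.4 and 2989 (difference 2.10 ± 0.58, adjusted p = 0.0084).

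The rises of DARS for aspartate, KARS for lysine, HARS and WARS for tryptophan were smaller, with differences of 1.58, 0.89, 1.09 and 0.85, and were each lost in a fit restricted to the 2 stages and with library medians set equal (adjusted p with equal medians 0.055, 0.29, 0.23 and 0.3). KARS had means of 481 ± 51.3 in GV oocytes, 414 ± 105 in MII oocytes, 563 ± 103 at 4 cells, 942 ± 128 at 8 cells, 1612 ± 418 at 16 cells and 2936 ± 142 among blastocysts (SD, n = 3). It passed only at the last step, where it lost its call without 16-cell replicate 2 (0.081) or blastocyst replicate 2 (0.051). HARS lost its call without 16-cell replicate 2 or blastocyst replicate 1 or 2, and WARS without 16-cell replicate 1 or 2 or blastocyst replicate 2 or 3 (adjusted p up to 0.17 and 0.14).

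IARS2 had the largest mitochondrial rise at this step, from 197, 119 and 282 to 2195, 1057 and 1593 (difference 3.02 ± 0.43, adjusted p = 1.7e-05), a ratio of means of 8.11. NARS2 rose from 219, 186 and 98.4 to 449, 484 and 392 (difference 1.44 ± 0.55, adjusted p = 0.049), but with the replicate number as a block, a term used because same-numbered libraries deviated together at this step, its adjusted p was 0.051, and it lost its call in 5 of 6 fits without a library. WARS2 fell from 483, 616 and 401 to 104, 205 and 65.8 (difference -2.09 ± 0.49, adjusted p = 0.0023), a call that held in every alternative. While WARS2 fell, its cytosolic counterpart WARS had 1031, 1144 and 1301 among 16-cell embryos and 1538, 2752 and 2132 among blastocysts, all higher than at the 16-cell stage.

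**Figure D3:**
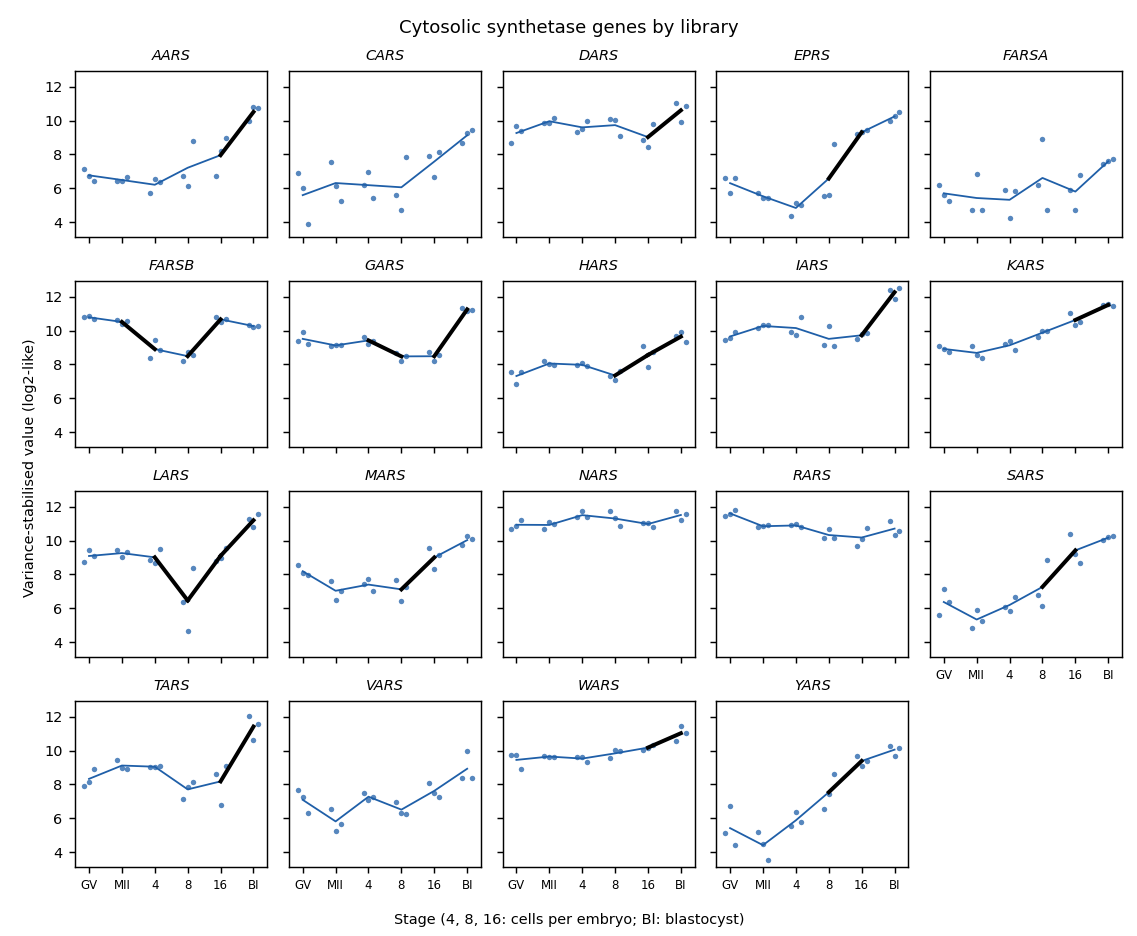
Variance-stabilised value (log2-like, y axis) of each cytosolic synthetase gene in each of 18 libraries (points) by stage (x axis); thin lines join stage means and thick black segments mark steps with an adjusted p under 0.05. Thick segments end in the blastocyst for 9 genes and at the 16-cell stage for 7, and CARS, FARSA, NARS, RARS and VARS have none.

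Several cytosolic genes passed at no single step. NARS, for asparagine, had 1662, 1885 and 2387 among GV oocytes, 3396, 2554 and 1856 among 8-cell embryos and 3493, 2359.6 and 3028 among blastocysts, and did not pass the F test (adjusted p = 0.11). RARS, for arginine, had 2826, 3010.3 and 3564 among GV oocytes, 826, 1093 and 1715 among 16-cell embryos and 2328, 1308 and 1529 among blastocysts, and passed the F test with GV oocytes highest (adjusted p = 0.0029). VARS had 88.8, 34.2 and 45.5 among MII oocytes, 266, 178 and 150.3 among 16-cell embryos and 329, 1017 and 334 among blastocysts, with blastocyst replicate 2 far above the others (difference 1.31 ± 0.53, adjusted p = 0.066). CARS, for cysteine, varied widely within stages, with 114, 59.3 and 11 among GV oocytes, 44.9, 22.1 and 224 among 8-cell embryos and 404, 607 and 704 among blastocysts; its blastocyst values lay above all 16-cell values (difference 1.55 ± 0.81, adjusted p = 0.16). FARSA had 69.9, 472 and 22.3 in 8-cell embryos, where replicate 2 was the highest of all libraries and replicate 3 among the lowest, and 169, 187 and 212 in blastocysts.

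The scaffold AIMP1, which also has a secreted form known as a cytokine, showed the largest step of all members. It had 408, 294 and 538 among GV oocytes, 143, 191 and 255 among MII oocytes, 54, 33.9 and 101 among 4-cell embryos and 145, 18.3 and 131 among 8-cell embryos. In 16-cell embryos it had 2044, 2236 and 2019 (difference 4.78 ± 0.57, adjusted p = 7.8e-06), a ratio of means of 21.4 over the 8-cell stage, and in blastocysts 2431, 1088 and 1622. All 16-cell and blastocyst libraries lay above all others, and the call held in every alternative, with 3.91 (adjusted p = 4.1e-05) when 8-cell replicate 2 and 16-cell replicate 1 were both left out. AIMP2 had 255, 196 and 66.7 among GV oocytes, 79.1, 64.9 and 80.1 among 8-cell embryos, 582, 121 and 139 among 16-cell embryos and 217, 349 and 242 among blastocysts, with 16-cell replicate 1 highest, and passed at no step (at 16 cells 1.48, adjusted p = 0.1). The further scaffold EEF1E1, which is not among the members, had 262, 354 and 114 among 4-cell embryos, 231, 203 and 342 among 16-cell embryos and 389, 225 and 243 among blastocysts and no call.

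Of the 7 synthetases of the complex RARS was called at no step. At the 16-cell stage EPRS, LARS and MARS rose, while RARS and DARS had differences of -0.15 and -0.71. At the blastocyst stage DARS, IARS, KARS and LARS rose. The median differences of the 7 genes and of the 12 cytosolic genes outside the complex were 0.75 and 0.93 at the 16-cell step and 1.03 and 1.2 at the blastocyst step.

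The course of EPRS is uncertain because a further row of the deposited table, LOC538357, carries the gene number that the RefSeq gene table of ARS-UCD2.0 gives to EPRS1, the present symbol of EPRS. LOC538357 had 2143, 2373 and 2603 among 4-cell embryos, 1059, 547 and 436 among 8-cell embryos, 579, 788 and 1043 among 16-cell embryos and 6083, 4244 and 6474 among blastocysts. It fell at the 8-cell stage (difference -1.90 ± 0.31, adjusted p = 0.00017), when the EPRS row was higher in each library without passing, and rose in blastocysts (difference 2.81 ± 0.31, adjusted p = 6.4e-07). With both rows added the level was 2398 ± 236 in all at 4 cells, 838 ± 256 in all at 8 cells, 1435 ± 284 in all at 16 cells and 6826 ± 1235 in all for blastocysts (mean ± SD, n = 3), and the EPRS row held 1.0% of it at 4 cells and 44.0% at 16 cells. The rise of the EPRS row at 16 cells, a ratio of means of 4.0, corresponded to a ratio of 1.71 in the sum. The mitochondrial glutamate enzyme EARS2, listed as LOC100300732 and not a member, had few reads, with 0, 0 and 15.7 among 8-cell embryos, 38.2, 138 and 18.6 among 16-cell embryos and 9.33, 20.8 and 47.4 among blastocysts.

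**Figure D4:**
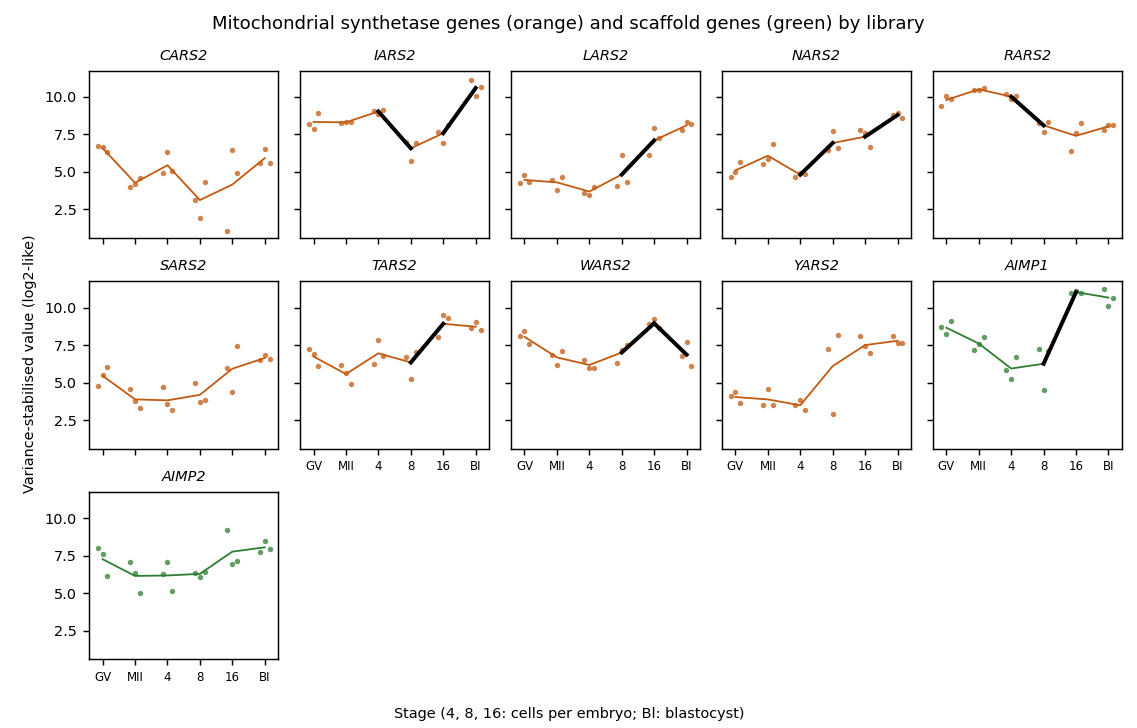
Variance-stabilised value (log2-like, y axis) of the 9 mitochondrial synthetase genes that passed the F test (orange) and the scaffolds AIMP1 and AIMP2 (green) in each of 18 libraries (points) by stage (x axis); thin lines join stage means and thick black segments mark steps with an adjusted p under 0.05. RARS2 falls at 8 cells and stays low, WARS2 peaks at 16 cells, and AIMP1 climbs by 4.78 at 16 cells.

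The mitochondrial genes CARS2, FARS2, MARS2, PARS2, SARS2 and YARS2 passed at no step, and the fewest reads of each in a library were 0 to 15. PARS2, for proline, had 0 reads in 16-cell replicate 1 and 8, 72.3 and 43.6 in blastocysts. CARS2 also had 0 reads in 16-cell replicate 1, beside 84.7 and 26 in the other 16-cell libraries. YARS2, SARS2 and CARS2 passed the F test. In YARS2 GV, MII and 4-cell libraries had means of 12.8 ± 3.75, 11.7 ± 6.96 and 7.56 ± 2.48, and 16-cell embryos and blastocysts 187 ± 76.6 and 220.4 ± 46.3 (SD, n = 3). MARS2 had 18.5, 3.05 and 139 among 8-cell embryos, 42.7, 22.6 and 262 among 16-cell embryos and 64, 92 and 80.3 among blastocysts, and FARS2 had 39.9, 22.6 and 43.1 among 4-cell embryos, 47.2, 209 and 113 among 16-cell embryos and 86, 209 and 153 among blastocysts, and these differences did not pass. SARS2 went from 11.9 ± 9.3 at 4 cells to 96.1 ± 12.6 in blastocysts. Differences of up to 2.61 in these genes did not pass.

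RARS2 was highest in MII oocytes and RARS in GV oocytes. RARS2 had 685, 1086 and 943 among GV oocytes and 1407, 1388 and 1583 among MII oocytes and 223, 283 and 277 in blastocysts, all below each oocyte value. LARS2 was highest in blastocysts, with 15.2, 24 and 16.1 among GV oocytes, 8.44, 7.34 and 11.8 among 4-cell embryos and 215, 324 and 288 among blastocysts.

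For 12 amino acids both a cytosolic and a mitochondrial gene were measured, which gave 13 pairs because FARS2 is set against FARSA and FARSB. The difference between the genes of a pair depends on their lengths, but its change between stages does not where both genes have many reads. At few reads, as in CARS2, LARS2, SARS2 and YARS2 at some stages, the log2-like scale is compressed, and the change also depends on level. Taken as cytosolic minus mitochondrial, it was higher in blastocysts than in GV oocytes in 10 of 13 pairs and lower in 3 (FARSB with FARS2, LARS with LARS2 and NARS with NARS2), with a median change of 0.86. The largest increase was that of CARS over CARS2, from -1.0 ± 1.33 to 3.21 ± 0.58 (SD, n = 3), and WARS over WARS2 went from 1.39 ± 0.17 in GV oocytes through 2.96 ± 0.48 in MII oocytes, 3.35 ± 0.25 at 4 cells and 2.83 ± 0.39 at 8 cells to 1.22 ± 0.42 at 16 cells and 4.16 ± 0.67 in blastocysts. SARS over SARS2 went from 0.91 ± 0.63 to 3.53 ± 0.20. The largest decrease was that of NARS over NARS2, from 5.83 ± 0.27 in GV oocytes and 6.69 ± 0.15 at 4 cells to 2.72 ± 0.38 in blastocysts. IARS over IARS2 was 1.32 ± 0.34 in GV oocytes and 1.67 ± 0.30 in blastocysts, where both genes rose. TARS over TARS2 passed through its lowest value at 16 cells, -0.75 ± 1.72, between 1.59 ± 1.11 in GV oocytes and 2.69 ± 0.94 in blastocysts. These changes are descriptions without a test.

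**Figure D5:**
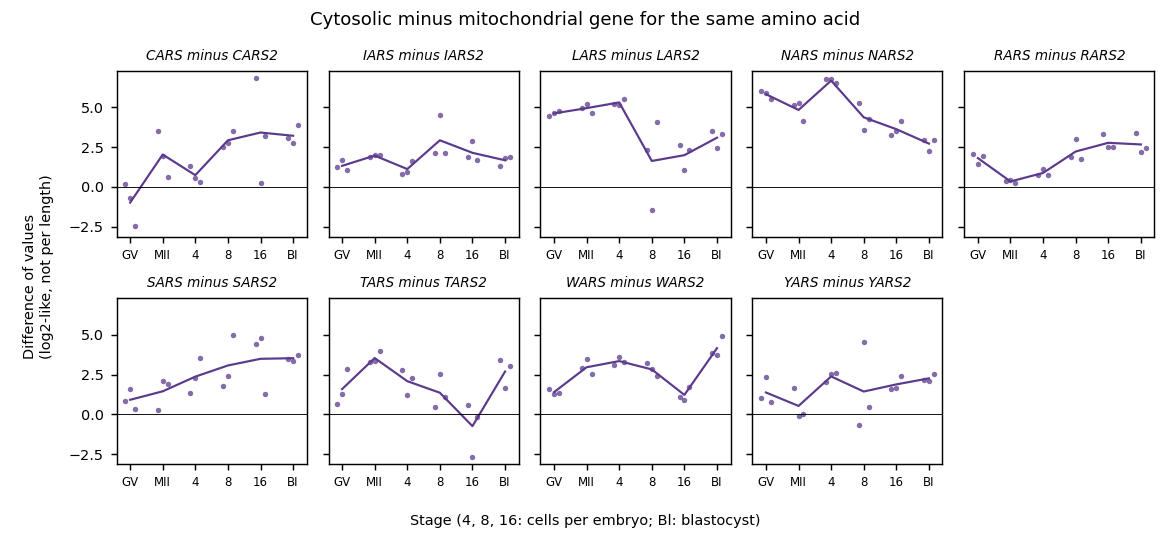
Value of the cytosolic minus that of the mitochondrial gene for the same amino acid (log2-like, not per length, y axis) in each of 18 libraries (points) by stage (x axis), for the 9 pairs whose mitochondrial gene passed the F test; lines join stage means. NARS minus NARS2 falls from 6.69 at 4 cells to 2.72 in blastocysts, and WARS minus WARS2 climbs from 1.22 at 16 cells to 4.16.

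Some members overlap other genes in the RefSeq gene table of ARS-UCD2.0, 12 of the 34 with a gene of the deposited table. Overlap was taken from whole gene spans of that assembly, not from exons and not from UMD3.1. Strand is not kept by the library kit named in the labels' protocols, so that reads from a stretch shared by exons of both genes could not be told apart. Which members share such a stretch was not tested. The microRNA genes within IARS2 and MARS had too few reads to be tested. For AARS, MARS, RARS2, TARS2 and YARS the other neighbour did not pass in the same direction at the step where the member was called. MARS rose at 16 cells while DDIT3, a stress-response transcription factor, fell (-1.03). RARS2 fell at 8 cells beside a difference of -0.57 for SLC35A1, TARS2 and YARS rose at 16 cells beside 0.09 for RPRD2 and -0.63 for S100PBP, and AARS rose in blastocysts beside 0.35 for DDX19B. AIMP2 overlaps EIF2AK1, a kinase of the stress response, which had 3363, 4337 and 3849 in GV oocytes and fell in blastocysts (-1.21). VARS, which passed as lower in MII oocytes with array weights, overlaps LSM2, which fell at that step (difference -3.30 ± 0.54, adjusted p = 0.0043) and rose in blastocysts (1.81), and the part of this overlap in the values of VARS was not tested.

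Other genes around tRNA charging were counted beside all genes tested, of which 14.8% rose and 16.3% fell at 16 cells and 18.2% rose and 13.1% fell in blastocysts. Among 15 partners of charging, 5 rose and 2 fell at 16 cells (median difference 0.47) and 3 rose and 2 fell in blastocysts (0.13). TUFM, the mitochondrial factor that carries charged tRNA to the ribosome, rose from 174, 199 and 129.9 to 1135, 1062 and 763 (difference 2.53 ± 0.45, adjusted p = 0.00026). AARSD1, an editing protein for mischarged alanine tRNA, rose from 43.5, 32.8 and 78.7 to 555, 432 and 262 (difference 2.93 ± 0.51, adjusted p = 0.00025). PET112L, a subunit of the mitochondrial enzyme that makes glutamine on its tRNA, fell from 132, 176 and 339 to 3.37, 22.6 and 22.3 (difference -3.58 ± 0.57, adjusted p = 0.00011). TARSL2, a relative of TARS, had 20.3, 13 and 43.1 among 4-cell embryos, 231, 376 and 234 among 8-cell embryos and 16.9, 81.9 and 29.7 among 16-cell embryos, with a rise at 8 cells (difference 3.36 ± 0.78, adjusted p = 0.0053) and a fall at 16 cells (difference -2.82 ± 0.78, adjusted p = 0.0093), where TARS did not pass.

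Of 23 genes of tRNA processing and export, 9 rose and 0 fell at 16 cells (median difference 1.09), and 1 rose and 4 fell in blastocysts (-0.73), beside 14.8% and 16.3% of all genes at the first of these steps and 18.2% and 13.1% at the other. Components of ribonuclease P, which trims the front end of tRNA precursors, were the 3 with the smallest p at 16 cells. RPP21 rose from 101, 35.1 and 70.9 to 316, 271 and 334 (difference 2.19 ± 0.45, adjusted p = 0.00096), and RPP14 and POP1 showed differences of 2.08 and 3.44. XPOT, the exporter of tRNA, was the 1 gene of this list that rose in blastocysts, from 879.8, 672 and 893 to 2794, 1862 and 2282 (difference 1.49 ± 0.29, adjusted p = 0.00045), and was chosen after its values were seen. Of 20 genes of RNA polymerase III, which transcribes tRNA genes, and its factors, 5 rose and 1 fell at 16 cells (0.86; all genes 14.8% and 16.3%), and 1 rose and 6 fell in blastocysts (-0.33; all genes 18.2% and 13.1%). POLR3K fell from 2759.5, 3687 and 2803 to 818, 698 and 879 (difference -1.94 ± 0.27, adjusted p = 1.4e-05), and POLR3G and POLR3A fell by 2.85 and 1.27 on the log2-like scale. At this step 9 of 19 cytosolic synthetase genes rose.

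Of 30 genes of the ATF4 branch of the stress response, 4 rose and 9 fell at 16 cells (median difference -0.22), where 14.8% of all genes rose and 16.3% fell. In blastocysts 18 of the 30 rose and 4 fell (1.77), where 18.2% of all genes rose and 13.1% fell. Enzymes of serine synthesis were among the largest rises, with PSPH going from 3.37, 50.8 and 85.4 to 1176, 595 and 702 (difference 4.61 ± 0.62, adjusted p = 9.5e-06) and PSAT1 from 0, 98.8 and 14.8 to 1072, 616 and 783 (difference 5.65 ± 0.92, adjusted p = 7.9e-05). Among 4-cell embryos PSPH already had 973, 902 and 726, so its blastocyst level followed a low at 16 cells. PSAT1 had 90.0, 109 and 108 at 4 cells. NUPR1, a stress-induced regulator, went from 0, 0 and 0 to 49.3, 140.2 and 42.6 (difference 5.06 ± 0.72, adjusted p = 1.8e-05), a fitted value that sets no bound on the fold because the gene had 0 reads at 16 cells. ATF4 itself had 2726, 2126 and 1301 among 16-cell embryos and 5450.2, 4535 and 2500.3 among blastocysts (difference 1.01 ± 0.35, adjusted p = 0.032) and ASNS, which makes asparagine, 1940.4, 389.6 and 512 among 16-cell embryos and 2677, 2953 and 3750.0 among blastocysts (difference 2.08 ± 0.54, adjusted p = 0.0051); both were chosen after their values were seen. PET112L rose again in blastocysts (3.13), among the partners of charging. The 4 ATF4 branch genes that fell were ATF3, DDIT3, EIF2AK1 and STC2.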

How the data were processed

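Illumina GAIIx libraries were made from amplified cDNA of pools of 10 oocytes or embryos, per the labels' protocols. The authors deposited variance-stabilised log2-like values; the submitters' processing notes name CASAVA 1.6, TopHat2 2.0.3, HTSeq, DESeq and UMD3.1. For the annotation and for multi-mapping reads, the sources used here give nothing. Inverting the transformation gave whole reads for 100% of 390024 values (tolerance 1e-06), which set the depth of each library, 2438473 to 11971840 reads.

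limma 3.58.1 (R 4.3.3) was fitted to the deposited values of 17138 genes (minimum 1 read, in 3 libraries or more), as a stage model with a variance trend over 18 libraries, and tested on simulated data. Tables and plots used Python 3.11.15, pandas 2.3.3 and matplotlib 3.10.9. Members, lists and tests were chosen with earlier results of these data known. Named were the members, with library values for up to 4 cytosolic and 3 mitochondrial calls per step by p, both genes of a pair so named, the scaffolds, and up to 3 genes per list by p at its step with most calls. Subsets of the complex, pairs and overlapping genes were added later. All 34 members matched an ARS-UCD2.0 RefSeq gene, 32 by a listed name and 2 (EPRS and VARS) through their present symbols EPRS1 and VARS1, which were set by hand. The table served for names and overlaps only. Promoter motifs were planned and not analysed here, and 1 member is not reported by itself here. Same-numbered libraries deviated together between 16-cell embryos and blastocysts (correlations 0.113, 0.134 and 0.108 across genes). At every other step at least 1 of the 3 pairs was at or under 0.1, with -0.002 the lowest of all 15 pairs and 0.202 the highest.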

Additional observations from a re-analysis of the deposited data

How the results depend on the processing

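Of 29 calls of single genes, 10 held in every alternative fit run (AIMP1 and FARSB at 16 cells, IARS2 and RARS2 at 8 cells, and GARS, IARS, IARS2, LARS, TARS and WARS2 in blastocysts), and 0 changed direction. Fits restricted to the 2 stages compared, with fewer samples, lost 18 of 29, library medians set equal and array weights 7 each, voom 2, the replicate block 1 and the 2 filters 0. Leaving out both 8-cell replicate 2 and 16-cell replicate 1, chosen after seeing the data, lost 5 of 28. The counts of cytosolic rises at the 16-cell step (7) became 1 with both stages alone, 4 with array weights and 4 without both libraries, and the 3 mitochondrial rises became 0 with both stages alone. At the blastocyst step the 9 cytosolic rises became 5 with equal medians and 5 with both stages alone, and the 2 mitochondrial rises became 1 with equal medians, 1 with array weights and 1 with the replicate block. The replicate block lost no other call, and added KARS and IARS2 as higher at the 16-cell step. At the 8-cell step cytosolic rises (0) became 1 without a filter, 1 with array weights and 2 without both libraries, cytosolic falls (2) became 0 with both stages alone and 1 with voom, and mitochondrial rises (1) became 0 with both stages alone, 2 with array weights and 2 without both libraries. At the 4-cell step the 1 cytosolic fall became 0 with equal medians and 0 with both stages alone, and array weights gave 1 cytosolic rise. At the MII step array weights gave 3 cytosolic and 2 mitochondrial falls in place of 0. The cause of these shifts was not tested, and the share of all genes called in each alternative fit was not counted. With means in place of medians the gap between the classes at the 8-cell step moved from -0.47 to 0.08. Leaving out each library in turn gave 4 to 9 cytosolic and 2 to 4 mitochondrial rises and 0 to 1 mitochondrial falls at the 16-cell step, 6 to 10 and 1 to 3 rises in blastocysts, 0 to 2 cytosolic and 1 to 2 mitochondrial rises with 1 to 2 cytosolic falls at the 8-cell step, 0 to 1 cytosolic falls at the 4-cell step, and 25 to 29 members in the F test (28 with all libraries). In the labels, same-numbered libraries of different stages share only a replicate number. Over all steps 13 of 15 pairs correlated best with their own number, and what they share was not tested. Amplified reads are not independent molecules.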
